A study of Mus musculus with 29 samples.

Results

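The joining segments of the T cell receptor alpha chain (TRAJ) lie in a long row between the variable segments (TRAV) and the constant gene, and they are numbered downward toward the constant gene. Alpha chain messages from metastases of a Braf-mutated mouse melanoma, in brain and in ovary, were sorted by these segments, and the segments were described by their place in that row. Members were all TRAJ segments in productive chains with a single J name, other than TRAJ18 and TRAJ33, which occur in the chains of invariant T cells and enter here only as totals. They numbered 39 of the 53 J segments of both chains: 10 V-proximal (TRAJ43 and above), 16 middle (TRAJ42 to TRAJ22) and 13 C-proximal (TRAJ21 and below). The members held 90.2% of 319742 productive alpha chain counts and 94.7% of 21959 distinct clonotypes, a clonotype being a combination of V name, J name and CDR3 amino acid sequence. Segments were matched to RefSeq (assembly GRCm38.p6), in which J numbers fall along the locus toward the constant gene.

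A pair of drugs was given alone or together: an antibody against PD-L1, the ligand of the checkpoint receptor PD-1, and trametinib, an inhibitor of the kinase MEK. The groups were untreated (labelled No, titled Vehicle, day 0), anti-PD-L1 lead-in (also day 0), trametinib alone (day 3), concurrent combination of trametinib with anti-PD-L1 (day 3), and lead-in combination, in which the antibody preceded both drugs (day 3). All groups came from one experimental metastasis model, and the labels give no strain, sex or age. The brain had 19 samples (3 untreated, 4 of each other group, from 2 numbers per group) and the ovary 10 (2 parts of 1 number per group). Sample titles carry a number and mostly a part, without saying whether these are animals, lesions or libraries, so p-values measure only the spread between numbers. Day 0 and day 3 cannot be told apart from trametinib. Tumours were not sorted, so a share reports on transcripts, and fewer cells of a kind cannot be told apart from less message per cell.

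The alpha chain is assembled in thymocytes in repeated rounds. Early joins tend to use V segments at the J side of the V cluster with J segments at the V side of the J row, and later rounds cut these out and join V and J segments lying farther apart. The place of a segment therefore bears on when in a cell's life it could be used, while the abundance of a chain in a tumour depends also on how far its clone has multiplied. Distinct clonotypes describe the former and counts include the latter, so both are given throughout.

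Depth differed widely. Brain samples held 230 to 9389 alpha chain counts in 55 to 1394 clonotypes and showed 26 to 39 of the 39 members, and ovary samples held 14088 to 51549 counts in 1223 to 3270 clonotypes and showed all 39. A segment without a count could have held up to 1.30% in the shallowest brain sample (3 counts of the total), and at most 0.0213% in the ovary. TRAJ18 and TRAJ33 together held 1.30% to 24.2% of brain counts, most in untreated number 3, and 5.01% to 25.4% in the ovary, again most in untreated number 3. These totals stay in the denominator of every share unless stated.

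Each J segment leaves a recognisable end on the CDR3, the loop that touches the antigen. The ends shown are the longest ones shared by at least 80% of the clonotypes of a segment, for the segments on which the results turn.
TRAJ58: GTGSKLSF
TRAJ49: GYQNFYF
TRAJ43: NNNAPRF
TRAJ31: NNRIFF
TRAJ23: NQGKLIF
TRAJ22: SGSWQLIF
TRAJ21: YNVLYF
TRAJ7: QQQQTYF
TRAJ2: TGGLSGKLTF
Most end in the phenylalanine with which J segments close the loop, and the stretch before it differs from segment to segment. TRAJ38 (VGDNSKLIW) closed with tryptophan.

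Usage along the row was uneven, and the same segments led in both organs. By distinct clonotypes TRAJ23 was first, with 6.74% ± 2.99 of alpha chain clonotypes in the brain (SD, n = 19 samples) and 7.005% ± 0.945 in the ovary (n = 10). TRAJ22 was second, with 6.58% ± 1.86 and 5.90% ± 0.47, and TRAJ31 followed, with 5.53% ± 1.20 and 5.22% ± 0.77. In both organs the spreads of TRAJ23 and TRAJ22 overlap, as do those of TRAJ22 and TRAJ31, so this order is not settled. The lowest was TRAJ7, with 0.128% ± 0.160 in the brain, where 9 of 19 samples showed it, and 0.241% ± 0.141 in the ovary. Across the 39 segments, mean clonotype shares of the organs correlated at 0.977 (Pearson) and 0.968 (Spearman). Segments are not independent replicates, and the organs share 5 numbers. The J number itself carried no trend with clonotype share (Pearson -0.05 in the brain and -0.02 in the ovary, 39 segments).

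**Figure D1:**
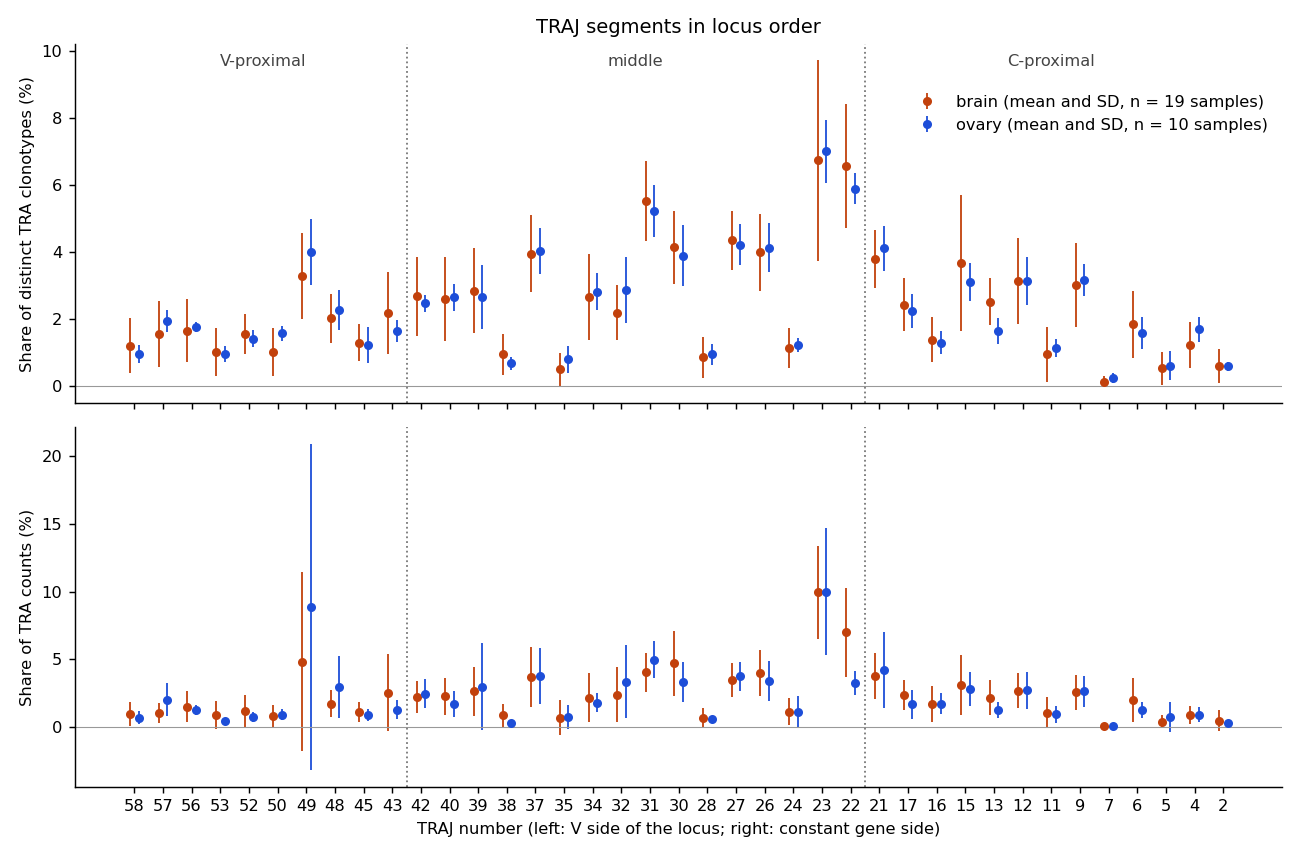
Share of distinct alpha chain clonotypes (upper panel, %) and of alpha chain counts (lower panel, %) for each of 39 TRAJ segments in locus order, V side to the left. Points are means over 19 brain and 10 ovary samples, bars are SD, and dotted lines mark the limits between V-proximal, middle and C-proximal segments. TRAJ23 and TRAJ22 stand highest by clonotypes, and TRAJ49 has the widest spread by counts.

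Segments at both ends of the row were low to middling in use, and low use was not particular to the ends. Inside the row, TRAJ38 (0.681%) and TRAJ35 (0.795%) held less of ovary clonotypes than TRAJ58. At the V side, TRAJ58, TRAJ57 and TRAJ56 held 1.21% ± 0.81, 1.55% ± 1.00 and 1.65% ± 0.94 of brain clonotypes, and 0.97% ± 0.27, 1.95% ± 0.33 and 1.75% ± 0.14 of ovary clonotypes. At the constant gene side, TRAJ5, TRAJ4 and TRAJ2 held 0.527% ± 0.493, 1.23% ± 0.69 and 0.585% ± 0.506 in the brain, and 0.611% ± 0.423, 1.69% ± 0.38 and 0.584% ± 0.122 in the ovary. At the V-proximal limit, TRAJ43 (2.18% ± 1.22 in the brain) and TRAJ42 (2.67% ± 1.19) lay within their spread of each other. At the other limit TRAJ22 exceeded its neighbour TRAJ21 (3.80% ± 0.86) on average, with ranges of 2.33% to 10.8% and 1.82% to 5.26% over the brain samples.

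By counts the order changed at a few segments. TRAJ23 stayed first, with 9.94% ± 3.43 of brain counts and 9.99% ± 4.69 of ovary counts. In the brain TRAJ22 (6.99% ± 3.30), TRAJ49 (4.83% ± 6.59), TRAJ30 (4.70% ± 2.39) and TRAJ31 (4.05% ± 1.43) followed, and in the ovary TRAJ49 (8.86% ± 12.05), TRAJ31 (4.99% ± 1.36), TRAJ21 (4.21% ± 2.80) and TRAJ37 (3.79% ± 2.06). The SD of TRAJ49 exceeded its mean in both organs, and its median was 2.67% in the brain and 3.22% in the ovary. The lowest by brain counts were TRAJ7, TRAJ5 and TRAJ2, and by ovary counts TRAJ7, TRAJ38 and TRAJ2.

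The 3 groups of segments divided the clonotypes in similar proportions in both organs. V-proximal segments held 16.8% ± 2.1 of brain clonotypes (n = 19) and 17.7% ± 1.0 of ovary clonotypes (n = 10). Middle segments held 51.7% ± 5.5 and 51.5% ± 1.6. C-proximal segments held 25.2% ± 3.1 and 24.6% ± 1.3. For V-proximal and C-proximal segments the spread between samples was near what counting clonotypes alone gives, with a chi-square per degree of freedom of 0.775 to 1.54. For middle segments it was above that, with 2.05 in the brain and 1.72 in the ovary. For counts the same ratio was 19.7 to 1496, and single samples moved far from the means.

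Count shares of V-proximal and C-proximal segments varied more. V-proximal segments held 16.7% ± 5.1 of brain counts and 20.2% ± 9.7 of ovary counts. The highest values were 30.7% and 26.7% in the brain parts of lead-in combination number 12, and 36.1% and 39.5% in its ovary parts. The other lead-in combination number, 14, held 14.97% and 20.3% in the brain, within the 10.5% to 22.2% of the other treatments. In its part 2 the largest V-proximal clonotype, with TRAJ43, held 9.57% of counts. C-proximal segments held 23.4% ± 5.5 of brain counts. They were highest in the concurrent combination, at 26.3%, 28.0%, 32.4% and 38.6%, and lowest in the lead-in combination, at 15.2%, 16.02%, 19.5% and 23.0%. The ranges of the 4 and 4 samples, parts of 2 numbers each, did not meet. The nearest values were 26.3% (number 1) and 23.0% (number 14). Exact intervals on counts are not given here, since the chi-square per degree of freedom of this share over brain samples was 55.0, far above counting error. In the ovary the concurrent combination (28.2% and 27.2%) again lay above the lead-in combination (14.6% and 15.6%), from numbers that are also in the brain set. The total of number 12 includes 1 TRAJ49 clonotype with 23.8% and 17.6% of brain counts and 29.0% and 30.8% of ovary counts. This lowers its C-proximal shares. Number 14, in which that clonotype had no counts, held 23.0% and 19.5%. The gap between these groups has no test of its own, with or without the clonotype. Tests of this share over lead-in and over all treatments, rerun without the largest clonotype of each sample, did not pass.

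Untreated brain samples were the lowest in the middle group by clonotypes, though not by counts. Middle segments held 42.7%, 41.9% and 43.9% of their clonotypes, below the 48.0% to 65.5% of the 16 other brain samples, and below the 49.4% and 50.2% of the untreated ovary. TRAJ18 and TRAJ33 held 9.43% to 11.8% of clonotypes in the same 3 samples, against 3.64% to 9.91% elsewhere in the brain. Among member clonotypes alone the untreated range was 47.0% to 48.5% and that of lead-in 50.3% to 67.9%, so the ranges still did not meet. By counts they did, since middle segments held 37.2%, 45.1% and 50.6% of untreated counts against 44.3% to 59.0% elsewhere in the brain, and 49.1% to 56.5% of member counts against 46.7% to 66.2%. This clonotype difference was noticed after the values were seen and has no test, and these samples held only 97 to 192 member clonotypes each.

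**Figure D2:**
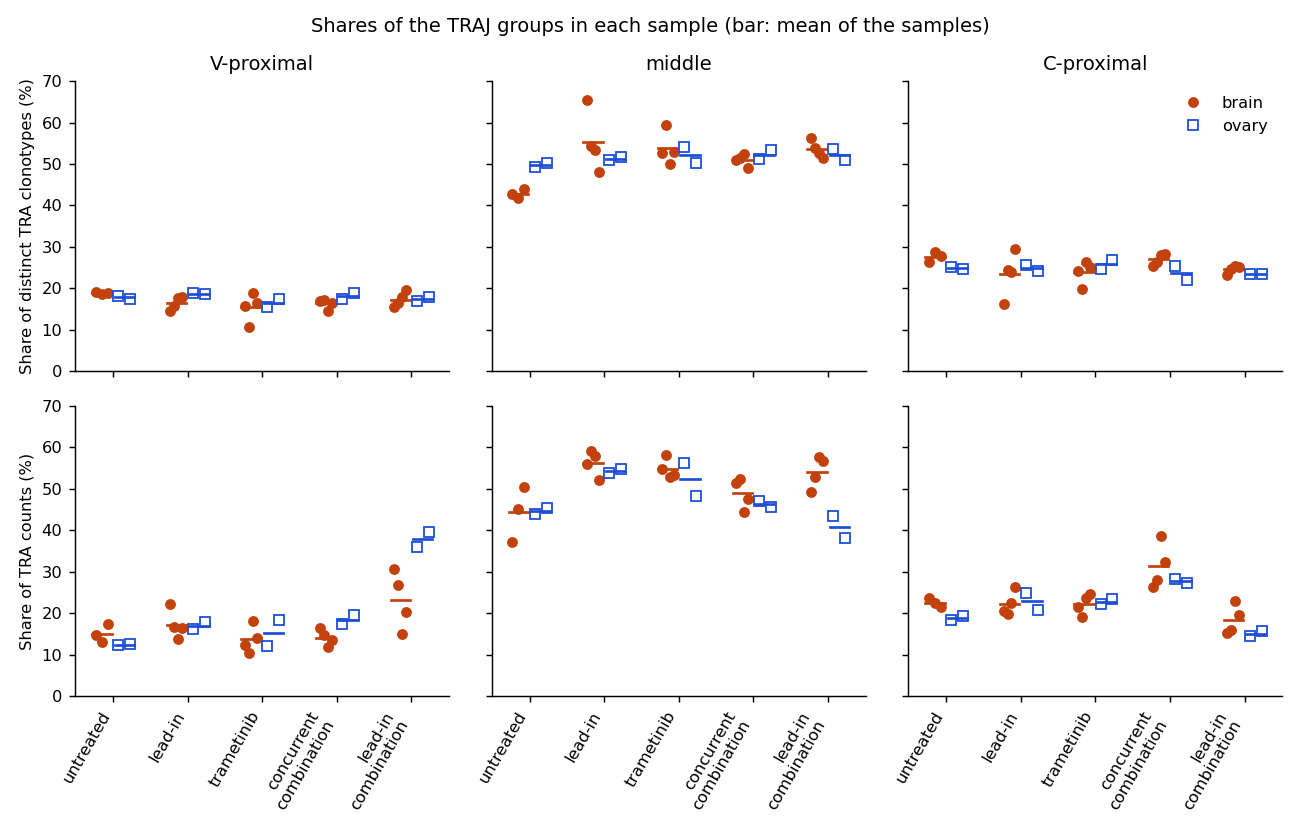
Share of distinct alpha chain clonotypes (upper row, %) and of counts (lower row, %) held by V-proximal, middle and C-proximal TRAJ segments in each sample, by treatment. Filled circles are brain samples, open squares ovary samples and bars the mean of the samples. In the brain V-proximal clonotype shares span 10.8% to 19.6% and middle ones 41.9% to 65.5%. V-proximal count shares reach 30.7% in brain and 39.5% in ovary samples of the lead-in combination.

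No test of the group shares passed. Of 16 exact permutation tests over brain numbers (Benjamini-Hochberg adjusted together, threshold 0.05), the lowest was the lead-in effect on the V-proximal count share. That share averaged 19.4% and 15.1% in the lead-in numbers and 28.7% and 17.6% in the lead-in combination numbers, against 13.9% and 17.3% untreated and 15.6% and 12.7% in the concurrent combination. With trametinib alone (11.5% and 16.01%) also counted as no lead-in, the difference within day was 5.41 percentage points (exact two-sided p = 0.0556, adjusted p = 0.483, smallest p possible 0.0111). It turned to -0.44 points when the largest clonotype of each sample was left out. That setting took V-proximal clonotypes only from number 12 and part 2 of number 14, all lead-in combination. Every other brain sample lost a clonotype outside the V-proximal group, so the groups were not treated alike. The difference ranged from 2.64 to 8.19 points without single numbers or parts, lowest without number 12. For the C-proximal count share, 72.7% of the sum of squares lay between the 5 treatments (exact p = 0.0603, adjusted p = 0.483). With parts entered as separate samples both passed (adjusted p = 0.0374 and 0.0162), but parts of a number are not known to be independent.

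Differences in clonotype shares were smaller. The lead-in differences were -0.52 points for V-proximal segments (exact p = 0.711, adjusted p = 0.848) and -2.50 points for C-proximal segments (exact p = 0.244, adjusted p = 0.729). With any anti-PD-L1 the differences were -0.54 (V-proximal) and -1.09 (C-proximal) points, and with any trametinib -1.25 and -0.44, with adjusted p of 0.729 to 0.848 by the exact test. Between organs, over 5 numbers each, V-proximal clonotypes differed by 0.785 points and C-proximal clonotypes by -0.13 points, ovary minus brain (exact adjusted p = 0.944 for both). With 2 numbers per treatment a difference that misses the threshold does not show that the groups are alike.

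Single segments were tested over all 53 J segments of both chains with edgeR's quasi-likelihood test, and all 39 members passed the filter on low counts. In lead-in against untreated brain, 1 of 53 segments was called (1.89%), and it was a member, TRAJ23. In each of the other 7 comparisons, 0 of 53 were called (0.0%), with 1 to 6 segments at an unadjusted p under 0.05 in a comparison. DESeq2 called 3 segments in lead-in against untreated (2 of them members, TRAJ23 and TRAJ40) and 2 over the 5 treatments (1 of them a member, TRAJ23), and 0 in the other comparisons. Median log2 differences in lead-in against untreated were -0.03 for 10 V-proximal, 0.35 for 16 middle and 0.24 for 13 C-proximal segments, beside 0.08 for all 53 tested. In lead-in combination against concurrent combination they were -0.18, -0.17 and -0.96, beside -0.30, with 11 of 13 C-proximal members lower and 38 of all 53 segments lower. None of those 13 passed the test, and TRAJ16 (log2 difference -1.62 ± 0.77 SE, adjusted p = 0.364) and TRAJ5 (-3.31 ± 1.31, adjusted p = 0.299) had the lowest p-values among them.

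TRAJ23 held 1.38% and 12.4% of alpha chain counts in the parts of untreated number 3 and 4.41% in untreated number 7. It held 12.6% and 14.9% in lead-in number 10, and 14.5% and 11.5% in number 11. Exact (Clopper-Pearson) 95% intervals, which cover counting error only, were 0.449% to 3.18% (5 of 363 counts), 9.25% to 16.2% (46 of 370) and 2.95% to 6.31% (28 of 635) untreated. They lay between 8.61% and 17.7% in the lead-in parts, whose totals were 230, 700, 6782 and 1292 counts. The groups overlapped at 1 untreated part. By edgeR's quasi-likelihood test on the summed parts the log2 difference was 1.31 ± 0.31 (SE, adjusted p = 0.0248). The call was lost in 10 of 17 alternatives. It was lost with the largest clonotype of each library left out (log2 difference 0.69, adjusted p = 0.241), with distinct clonotypes in place of counts (0.83, adjusted p = 0.220), with TMM normalisation (1.25, adjusted p = 0.0961), with each part as a library (1.15, adjusted p = 0.179), and without lead-in number 10 or 11, untreated number 7, or concurrent combination number 1 or 6 (adjusted p = 0.0742 to 0.227). It was also lost with TRAJ18 and TRAJ33 out of the total (1.10, adjusted p = 0.166), an alternative chosen after the values were seen. Leaving out the largest clonotype of each library removed TRAJ23 clonotypes from lead-in, but clonotypes of other segments from untreated. That setting therefore took TRAJ23 counts from lead-in alone. With TRAJ23's own largest clonotype left out of each number, TRAJ23 held 11.2% and 8.29% in lead-in against 3.81% and 3.65% untreated, with no test. On day 3 TRAJ23 ranged from 6.395% to 12.02% over 12 samples, and lead-in combination differed from concurrent combination by a log2 difference of 0.18 ± 0.29 (adjusted p = 0.788 by edgeR). With the largest clonotype of each library left out, this difference was 1.11 and was called (adjusted p = 0.00787 by edgeR). That setting removed TRAJ23 clonotypes from the concurrent combination, but TRAJ49 and TRAJ30 clonotypes from the lead-in combination, so the groups were not treated alike. With TRAJ23's own largest clonotype left out of each number, TRAJ23 held 7.57% and 8.11% in the lead-in combination against 6.76% and 5.52% in the concurrent combination. In the other alternatives the log2 difference was 0.12 to 0.63 and was not called. Ovary values were 12.7% and 12.2% untreated against 16.7% and 17.01% after lead-in, from 1 number each.

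One chain supplied much of TRAJ23. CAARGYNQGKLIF, joined to TRAV7D-2, made up 34.6% of all TRAJ23 counts and occurred in 9 of the 10 numbers, in 17 of 19 brain and 10 of 10 ovary samples. It held 6.49% in untreated part 3-2 and 0 in the other 2 untreated brain samples, 2.94% to 6.84% after lead-in, and 0.232% to 3.93% after trametinib. Without it, TRAJ23 held 1.38% to 5.95% in untreated and 7.64% to 11.4% in lead-in brain samples, which did not overlap. The removal itself ended the overlap, since untreated part 3-2 fell from 12.4% to 5.95%. TRAJ23 was looked at because it was called, the samples are parts of 2 numbers per group, and this contrast has no test. The same loop also appeared with the joined name TRAV14-2V14N-2, in 8 numbers. TRAV7D-2 accounted for 50.1% of TRAJ23 counts with 155 clonotypes, ahead of TRAV6N-7 (7.61%, 68 clonotypes). TRAJ23 and TRAJ22 also had the most member clonotypes found in at least 3 numbers, 63 of 1330 (4.74%) and 55 of 1244 (4.42%), beside 1.22% of V-proximal, 1.77% of middle and 1.40% of C-proximal clonotypes.

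**Figure D3:**
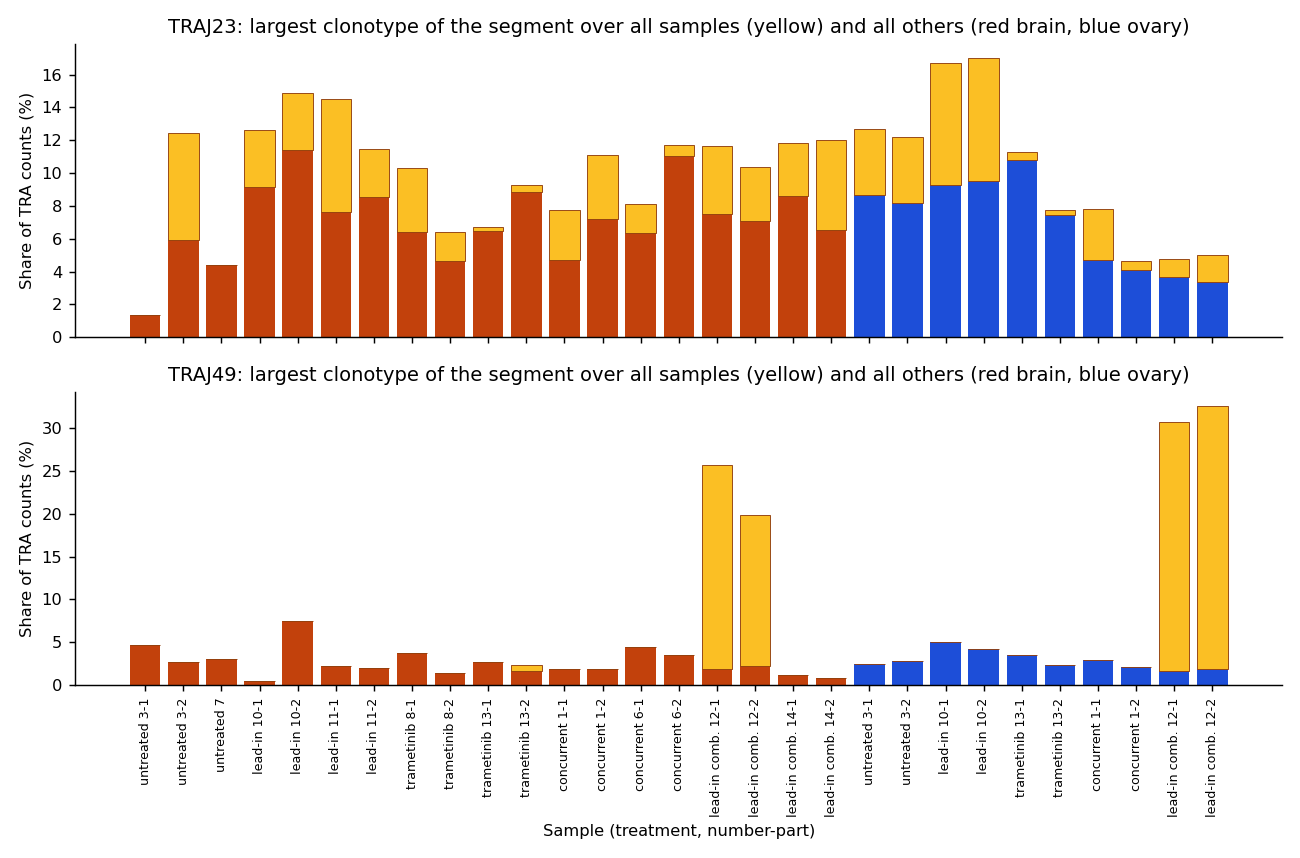
Share of alpha chain counts (%) held by TRAJ23 (upper panel) and TRAJ49 (lower panel) in each of 29 samples, named by treatment, number and part. The yellow part of a bar is the clonotype with most counts of that segment over all samples, and the rest is red in the brain and blue in the ovary. In number 12 of the lead-in combination TRAJ49 reached 25.6% and 19.8% in the brain and 30.7% and 32.6% in the ovary, nearly all in 1 clonotype.

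TRAJ49 was high in 1 number, in both organs. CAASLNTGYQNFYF, joined to TRAV7D-2, held 23.8% and 17.6% of counts in the brain parts and 29.0% and 30.8% in the ovary parts of lead-in combination number 12. Elsewhere this clonotype appeared once, in a brain part of trametinib number 13, with 5 counts (0.750%). The loop was found with other V names too, and with any V name it occurred in 4 numbers. With the joined name TRAV7-4V7D-4 it held 1.52% and 0.466% in the ovary parts and 1.14% (8 counts) in a brain part of lead-in number 10, and with TRAV10 it had 5 counts in lead-in number 11. Whether these V names were rightly assigned was not tested. Without it the brain parts of number 12 held 1.89% and 2.27% TRAJ49, within the 0.435% to 7.43% of the other 17 brain samples. The log2 difference of TRAJ49 in lead-in combination against concurrent combination was 2.04 ± 0.82 (SE, edgeR's quasi-likelihood test, adjusted p = 0.299), -0.69 with the largest clonotype of each library left out (adjusted p = 0.7997), -1.47 without number 12 and 2.98 without number 14. In number 14 TRAJ49 held 1.21% and 0.770%, the lowest of the day 3 samples.

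Other members reached 5% of a brain number only in number 14. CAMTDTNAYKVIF, with TRAJ30 and the V name TRAV16D/DV11V16N, held 6.74% there, and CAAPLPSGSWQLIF, with TRAV7D-2 and TRAJ22, held 6.56%. Neither loop was found in another number, with any V name. The leading C-proximal clonotypes were smaller. In the ovary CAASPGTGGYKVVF (TRAV10, TRAJ12) averaged 0.768% ± 1.416 (n = 10) and reached 4.29%. In the brain a TRAV7N-4 chain with TRAJ6 averaged 0.342% ± 1.152 (n = 19), occurred in 2 samples of 1 number and reached 4.83%, and its loop had 2 and 3 counts with other V names in other numbers.

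Between organs no segment passed (0 of 53, 0.0%) in a fit that left the numbers unpaired. With number as a replicate block a segment that is not a member was called, and TRAJ38 and TRAJ22 were still not called. TRAJ38 and TRAJ22 had the lowest p-values among members. TRAJ38 held 0.653%, 0.819%, 0.753%, 0.476% and 2.81% of brain counts in numbers 1, 3, 10, 12 and 13, and 0.440%, 0.236%, 0.243%, 0.184% and 0.536% of ovary counts. It was lower in the ovary in all 5 numbers, by a log2 difference of -1.73 ± 0.59 (SE, edgeR's quasi-likelihood test, adjusted p = 0.303). TRAJ22 held 5.56%, 2.05%, 9.03%, 5.60% and 7.19% in the brain and 3.33%, 3.24%, 3.001%, 2.12% and 4.40% in the ovary, lower in 4 of 5 numbers (-0.88 ± 0.35, adjusted p = 0.433).

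The use of the J row also differed with the partner V segment. RefSeq lists 130 TRAV segments, and 14708 of the 21959 clonotypes could be placed in 1 of 3 equal stretches of the V cluster (the others carry joined names of duplicated V segments in several stretches). With V segments of the stretch nearest the J row, V-proximal J segments held 28.5% ± 8.7 of clonotypes in the brain (n = 19) and 30.03% ± 7.39 in the ovary (n = 10). With the stretch farthest away they held 16.4% ± 4.2 and 18.3% ± 2.3, and with the one between 15.97% ± 4.41 and 16.004% ± 0.853. The nearest stretch exceeded the farthest in 18 of 19 brain and 9 of 10 ovary samples. C-proximal J segments showed less of a difference, with 21.02% ± 5.82 in the nearest and 23.1% ± 8.4 in the farthest stretch of the brain (lower in the nearest in 10 of 19 samples), and 20.6% ± 5.1 and 21.7% ± 2.2 in the ovary (7 of 10). The stretch between held most, with 33.6% ± 4.2 and 31.8% ± 2.2.

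Among V segments with at least 100 clonotypes, TRAV19 and TRAV21, at the end of the J side, had the highest mean J numbers. Of 161 clonotypes with TRAV19, 80.7% used a V-proximal J and 1.86% a C-proximal one, with a mean J number of 49.4. TRAV21 gave 76.4% and 1.52% over 263 clonotypes (mean 49.0), and TRAV17 gave 54.8% and 3.42% over 146 (mean 43.6). At the far end, TRAV5-1 gave 1.85% and 34.3% over 108 clonotypes (mean 23.4), TRAV6-1 gave 4.58% and 45.0% over 131 (mean 21.8), and TRAV7-1 gave 2.33% and 40.3% over 129 (mean 23.7). Clonotypes with TRAV17, TRAV19 or TRAV21 thus mostly carried V-proximal J segments, and those with TRAV5-1, TRAV6-1 or TRAV7-1 seldom did. Other V segments of the nearest stretch did not share this use. TRAV16 gave 7.76% V-proximal and 42.2% C-proximal (116 clonotypes), TRAV14-3 gave 12.5% and 43.6% (280), and TRAV8-2 gave 14.7% and 39.5% (177). Nor was the far end the lowest, since TRAV3N-3 and TRAV7N-6 in the stretch between had means of 21.7 and 21.8, beside 21.8 for TRAV6-1. TRAV14D-2, in the stretch farthest away, had a higher mean than TRAV17 (44.3, with 61.7% V-proximal over 141 clonotypes).

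The V-proximal share was higher with the outermost J-side set of V segments than with the far set in every number. With TRAV17 to TRAV21, V-proximal J segments held 73.3% ± 9.8 of clonotypes over 10 brain numbers (lowest 1 of 2 clonotypes, highest 85.7%) and 72.1% ± 8.6 over 5 ovary numbers (57.4% to 78.6%). With TRAV1 to TRAV6-2 they held 2.67% ± 3.59 (0.0% to 9.09%) and 3.71% ± 3.18 (0.0% to 8.26%). C-proximal J segments held 2.27% ± 3.52 (0.0% to 1 of 10 clonotypes) and 2.24% ± 2.47 (0.0% to 6.38%) with the former, and 33.7% ± 13.98 (0.0% to 57.1%) and 41.7% ± 8.6 (33.01% to 53.3%) with the latter. In brain number 10 neither set had a C-proximal J, among 4 and 3 clonotypes. Brain numbers held 2 to 49 clonotypes of the former set and 3 to 59 of the latter. These V sets were chosen after the values were seen, and the contrast is given with no test.

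**Figure D4:**
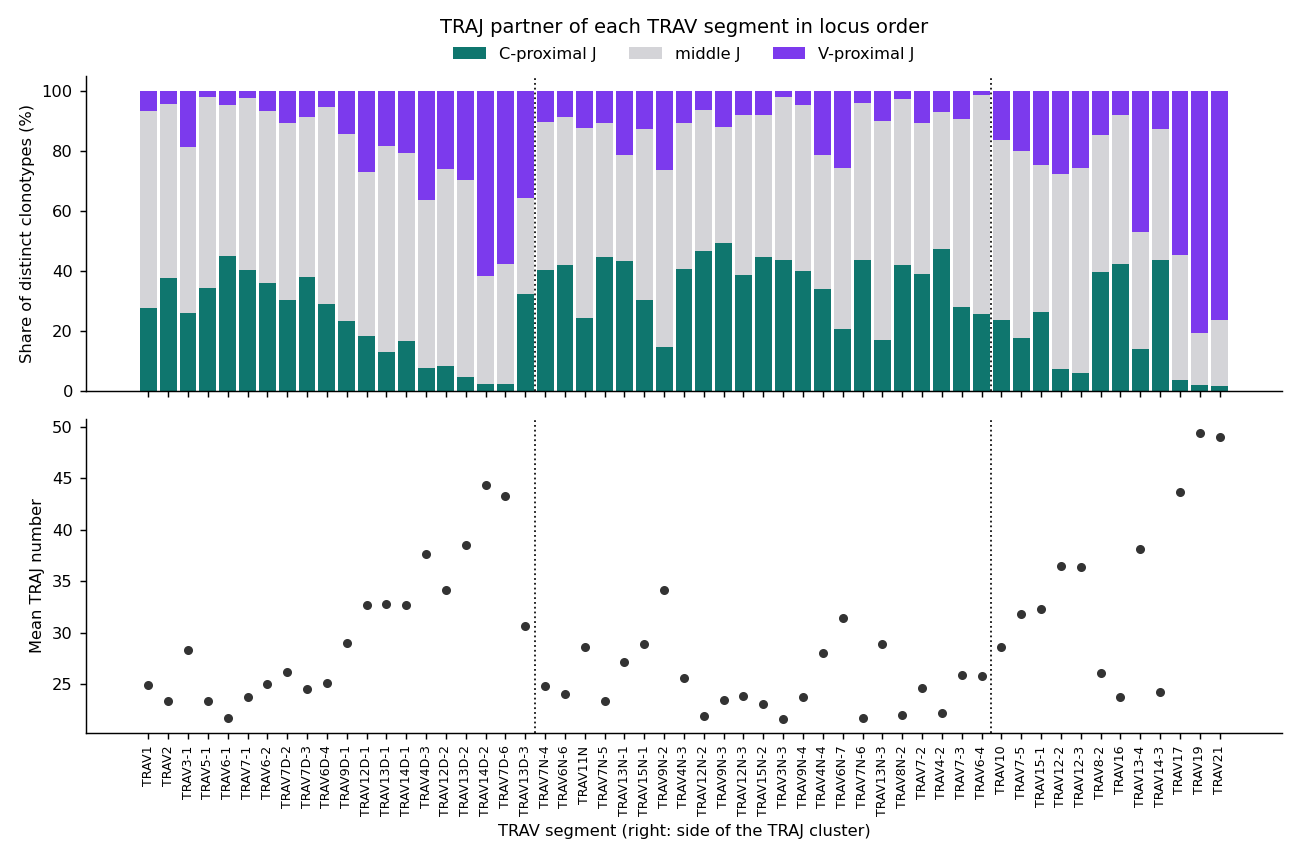
TRAV segments with at least 25 clonotypes in locus order, far side to the left and J side to the right, with dotted lines between the 3 stretches. The upper panel shows the share of distinct clonotypes (%) with C-proximal, middle and V-proximal J segments, and the lower panel the mean TRAJ number. TRAV19 and TRAV21 at the J side lie near a mean J number of 49, and TRAV14D-2 and TRAV7D-6 at the end of the first stretch also lie above 43.

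Between these ends the order was not a steady slope. Over the 40 V segments with at least 100 clonotypes, V order and mean J number correlated at 0.297 (Pearson) and 0.217 (Spearman), as a description. Within the first stretch, segments of the D series had higher means toward the J side, though not at every step, from 26.2 for TRAV7D-2 through 32.7 for TRAV12D-1, 34.2 for TRAV12D-2 and 38.5 for TRAV13D-2 to 44.3 for TRAV14D-2. The next stretch began again at 24.8 for TRAV7N-4. These D and N segments are near-identical copies of one another, and whether their chains were assigned to the right copy was not tested. The V segments named here and above were chosen after their values were seen.

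The loops also differed in length by group. The CDR3 averaged 13.9 residues with V-proximal, 13.5 with middle and 13.3 with C-proximal segments over 19 brain samples (SD 0.219, 0.124 and 0.123), and 13.9, 13.6 and 13.4 over 10 ovary samples (SD 0.0956, 0.0655 and 0.0446). Single segments ranged more widely than groups, from 12.5 residues for TRAJ31 to 15.7 for TRAJ2. The ends of these segments shown above have 6 and 10 residues.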

How the data were processed

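The authors deposited 1 table of whole-number counts with no normalization, a row per chain, CDR3, V name and J name and a column per sample. Per the labels' protocols the libraries were made from RNA with a QIAseq immune repertoire kit. For the aligner, the caller and the kind of count (reads or molecules) the answer is not given in the sources used here. Since the only build in the submitters' processing notes is a human one (GRCh38), no coordinates are printed. Left out were 43 alpha chain rows with an unresolved CDR3 (0.0144% of counts). No row had a joined J name. RefSeq named all TRAJ and, of 114 V copies, 113. In the other direction, 10 TRAJ segments that RefSeq does not call pseudogenes had no productive row. They are TRAJ59, TRAJ47, TRAJ46, TRAJ44, TRAJ41, TRAJ29, TRAJ25, TRAJ20, TRAJ19 and TRAJ3, so these positions are missing from the description of the row.

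Members, lists and tests were chosen with earlier results of these data known. Named are segments past the threshold, the 5 highest and 3 lowest by counts in each organ, the 3 at each end of the row, those beside the group limits, leading clonotypes and those at 5% or more of a brain number, and others where the text says so or where they had the lowest p-value of a comparison.

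Shares were averaged over the parts of a number and tested by exact two-sided permutation of numbers (within day for lead-in and anti-PD-L1), with Benjamini-Hochberg adjustment over 16 brain and 4 organ tests. J segment counts, summed over parts, were tested with edgeR 4.0.16 in R 4.3.3 (offset log chain total, at least 10 counts in at least 2 libraries, Benjamini-Hochberg over 53 segments, threshold 0.05), with DESeq2 1.42.0 as an alternative, after tests on simulated data. Shares were computed in Python 3.11.15 with pandas 2.3.3, numpy 2.4.6 and scipy 1.17.1, and drawn with matplotlib 3.10.9. Alternatives were other totals, group limits, depths, normalization and clonotype filters, and leaving out each number or part. Limits that a count of 0 allows cover counting error only, and PCR copies are not independent molecules.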

Additional observations from a re-analysis of the deposited data

Results flagged for a closer look

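Of 60 brain groups of 4 samples checked for a sample far from the others, 2 were marked, and chance marks about 1 in 20. Both concern TRAJ43, the last V-proximal segment. In the concurrent combination, part 1 of number 6 held 0.353% of alpha chain counts, while the nearest of the other 3 samples held 2.45%. In lead-in, part 1 of number 10 held 8.70%, while the nearest held 2.43%. That part has the fewest alpha chain counts of all samples (230). Among 45 member segments and group measures, 0 showed a lead-in effect in opposite directions on day 0 and day 3 in every sample.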

How the results depend on the processing

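Of 134 recomputed group shares (other settings, no sample left out), 123 kept their direction and side of the threshold. Among those that turned was the lead-in difference in V-proximal counts (5.41 points in the report). With the members alone as the total, trametinib moved the V-proximal count share by -0.19 points and anti-PD-L1 the C-proximal count share by -0.93. With the largest clonotype left out, the V-proximal count share moved by -0.44 points under lead-in and -3.65 under trametinib, and the C-proximal count share by 0.0326 between organs. In the brain that setting took V-proximal clonotypes only from lead-in combination samples, so the groups were not treated alike. Without single-count clonotypes, V-proximal clonotypes moved by 0.688 (lead-in) and 0.581 (anti-PD-L1) and C-proximal clonotypes by 2.17 (trametinib, 1.26 at equal depth of 230 counts). With each part as its own sample, lead-in on V-proximal counts (5.70 points) and treatments on C-proximal counts (67.4% of the sum of squares) passed.

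Leaving out single numbers or parts turned 26 of 548 shares, and none of these passed. The ranges were -1.75 to 1.71 (trametinib, V-proximal counts), -0.51 to 2.81 (anti-PD-L1, C-proximal counts), -0.55 to 3.42 (trametinib, C-proximal counts), -1.21 to 0.166 (lead-in, V-proximal clonotypes), -1.65 to 0.567 (anti-PD-L1, V-proximal clonotypes), -2.68 to 0.487 (anti-PD-L1, C-proximal clonotypes), -2.18 to 0.573 (trametinib, C-proximal clonotypes), and between organs -0.43 to 2.45 (V-proximal counts), -1.41 to 0.347 (C-proximal counts) and -1.30 to 0.673 (C-proximal clonotypes).

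Segments called in lead-in against untreated brain (1 in the report) numbered 3 with DESeq2 and 0 with TMM, distinct clonotypes, the largest clonotype left out, or TRAJ18 and TRAJ33 left out, and 0 to 2 without single numbers. Where the report has 0, there were 2 with DESeq2, 1 with the largest clonotype left out and 1 with parts kept apart over the 5 treatments (0 to 3 without single numbers). Lead-in combination against concurrent combination gave 1 with the largest clonotype left out, TRAJ23 (log2 difference 1.11, adjusted p = 0.00787 by edgeR). The clonotypes left out were of TRAJ23 in the concurrent combination and of other segments in the lead-in combination. That comparison and those with trametinib and with lead-in gave 0 to 1 without single numbers (TRAJ49 without number 14, and without number 12 TRAJ43 against trametinib). Between organs there was 1, not a member, with distinct clonotypes, with parts apart and with the replicate block. TRAJ49 in the lead-in combination moved to -0.69 (largest clonotype left out; -1.47 to 2.98 without single numbers) against concurrent combination, and against trametinib to -0.59 and, by distinct clonotypes, -0.033 (-1.40 to 3.05).

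Deviations of segment shares from the organ means correlated between same-numbered brain and ovary samples at 0.753, 0.188, -0.07, 0.660 and 0.478 for numbers 1, 3, 10, 12 and 13. Of the 5 brain samples, 3 correlated best with their own number. Since not all did, the main organ tests left the numbers unpaired. The numbers were nonetheless linked between organs. The largest clonotype was the same in both organs for TRAJ49 in numbers 3 and 12, TRAJ43 in 1 and 12, and TRAJ21 in 12 and 13. It was also the same for TRAJ30 in 1 and 3, TRAJ22 in 1, and TRAJ16 in 12 and 13. The TRAJ16 chain of number 12 led in other numbers too. The largest clonotype differed in the other numbers for these segments. That of TRAJ23 is not listed, since it occurred in 9 numbers. In number 10, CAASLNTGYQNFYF with TRAV7-4V7D-4 occurred in both organs, and in no other number. The unpaired tests ignore this link. With the replicate block, TRAJ38 (-1.53) and TRAJ22 (-0.82) were still not called (adjusted p = 0.0700 and 0.151 by edgeR), and the exact sign-flip test gave adjusted p = 0.875 for all 4 organ shares, of the same sizes. Counting J names joined within a group was not run, as there were none.

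Limits are depth in the brain, 2 numbers per treatment, and 1 number per treatment in the ovary.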
